A study of Mus musculus with 6 samples.

Results

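The Zfp-named zinc finger genes were the rows of the deposited table whose symbol begins with Zfp and a number, leaving out Zfp36, Zfp36l1 and Zfp36l2, which encode RNA-binding proteins with another kind of zinc finger. Membership went by symbol alone, under a rule set with earlier results of these data known. There were 279 members among 13185 gene rows. Their levels were compared between untreated mouse leukaemia cells and cells exposed to 25 nM panobinostat for 2 h, with 3 libraries in each group. The cells were a Notch1-driven T-ALL, an acute leukaemia of immature T cells. Both groups were kept on immobilised anti-CD3 (2.5 ug/mL) in medium with IL-2 (100 U/mL), so that T cell receptor stimulation was common to the comparison. Panobinostat inhibits histone deacetylases, enzymes that remove acetyl groups from histones and other proteins. Nothing in the labels ties the libraries to separate cultures or mice, so p-values measure the spread between these libraries only, which may be technical.

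Most Zfp-named genes encode proteins that read DNA through arrays of C2H2 zinc fingers, each folded around a zinc ion held by a pair of cysteines and a pair of histidines. Many also carry a KRAB box, a repression domain that binds the corepressor KAP1 (Trim28), which in turn brings in the histone methyltransferase Setdb1, heterochromatin proteins and the deacetylase-containing NuRD complex. Members of this KRAB class are known for silencing retroviruses and other transposable elements, and they often lie in tandem clusters on a chromosome. Members without a KRAB box are a mixed group that includes transcription factors, RNA-binding proteins and factors of the ribosome and the mitotic spindle.

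Levels were log2 CPM (counts per 1000000 reads) of 3' mRNA libraries, in which reads come from the polyadenylated end of a transcript and are not divided by its length. Low-value steps gave an estimated 6.01 to 7.74 reads per CPM, so that a gene at a log2 CPM of 0 stood for only a few reads. Across the tested members, Pearson's r between libraries was 0.954 to 0.976 within a group and 0.893 to 0.919 between groups. All 16 markers of T cells and T-ALL were measured, and their summed level was 1550 to 1591 CPM in treated and 2004 to 2120 CPM in untreated libraries. Markers of other blood cells were present as well, and their sums were lower in treated libraries as well. The 9 myeloid markers summed to 1063 to 1163 CPM in treated and 1307 to 1483 CPM in untreated libraries. The 8 erythroid markers summed to 6309 to 6709 CPM and 6710 to 7965 CPM, and 6 of 7 B cell markers to 44.3 to 46.6 CPM and 52.7 to 62.1 CPM. Single markers did not all go down. At a limma adjusted p below 0.05, 1 T cell marker rose and 8 fell, and 1 erythroid marker rose and 4 fell. The erythroid rise was Hbb-bs (log2 fold change 0.35 ± 0.10). No myeloid or B cell marker rose, and 4 and 2 fell, where 19.2% of all tested genes rose and 19% fell. The part of the other blood cells in the results below was not tested. In such bulk libraries fewer cells of a type and less RNA per cell cannot be told apart.

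After 2 h of panobinostat, 63 Zfp-named genes fell and 28 rose among the 273 that were tested, and 182 did not pass the test (limma, Benjamini-Hochberg adjusted p below 0.05 over all 12554 tested genes). The background was 38.3% of all tested genes called, 19.2% that rose and 19% that fell. The members' shares were 33.3% called, 10.3% that rose and 23.1% that fell. Falls therefore made up 69.2% of the members' calls, against 49.7% of the calls among all tested genes. The median log2 fold change of the tested members was -0.15, with an interquartile range of -0.59 to 0.33, while that of all tested genes was -0.01, with a range of -0.39 to 0.40. Among members with a mean of at least 2 log2 CPM the median was -0.0926. Of the 273 members 162 (59.3%) lay below 0, against 50.4% of all tested genes. Groups did not overlap, with all treated libraries above all untreated, in 49 members, and with all treated below in 84, against a background of 25.7% in each direction. At least 2-fold changes were called upward in 7 members and downward in 25, where the background was 5.12% and 5.15%.

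Falls stayed at 46 or more members when any 1 library was left out, but rises dropped to as few as 13. Counts among all tested genes moved as well, from 2416 rises and 2390 falls in the full fit. Without treated library 3 there were 13 rises (1582 among all tested genes), without treated library 2 there were 16 (1766), and without untreated library 3 there were 17 (1750). The 46 falls were those without untreated library 3, where 1634 of all tested genes fell. In all 6 such fits 41 of the 63 falls and 12 of the 28 rises kept their call. How many of all tested genes did so was not counted. Summed over the tested and untested members, the Zfp-named genes summed to 4959, 4902 and 4940 CPM under panobinostat and to 5574, 5482 and 5516 CPM without it. Every treated library thus held less message of this family than every untreated library.

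**Figure D1:**
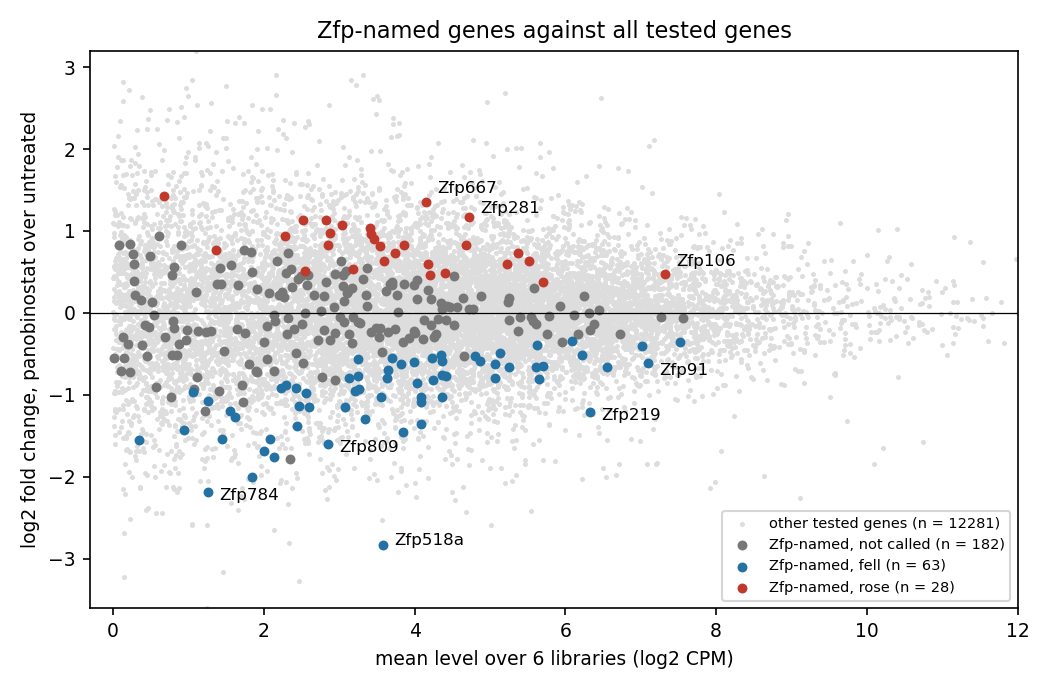
Log2 fold change of panobinostat over untreated libraries (y axis) against the mean log2 CPM over the 6 libraries (x axis) for 12281 other tested genes in grey and 273 tested Zfp-named genes, coloured by call; the axes leave out a few extreme other genes. The 63 members that fell reach down to -2.83 and the 28 that rose reach up to 1.42.

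The members are lower in level than most genes, with a median of 3.11 log2 CPM against 4.16 for all tested genes, and low genes are called less often. Other genes were therefore counted in the same 5 ranges of mean level, and their shares were weighted to the members' levels. At those levels 17.5% of 11441 other genes rose and 17.3% fell, against 10.3% and 23.1% of the members. In the lowest range, from 0.01 to 1.56 log2 CPM, 3.64% of members rose and 12.7% fell, while 8.04% and 8.41% of other genes did. Between 1.56 and 2.60 the shares were 5.56% and 20.4% for members and 14.7% and 14.7% for other genes. The middle range, 2.60 to 3.57, showed the least departure, with 16.4% of members up and 18.2% down, and 18.3% and 18.8% of other genes. From 3.57 to 4.50 log2 CPM 12.96% of members rose and 33.3% fell, against 22.3% and 21.3%. In the highest range, up to 7.56, the members' shares were 12.7% and 30.9%, against 24.2% and 23.3%. These shares are a description and carry no test.

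**Figure D2:**
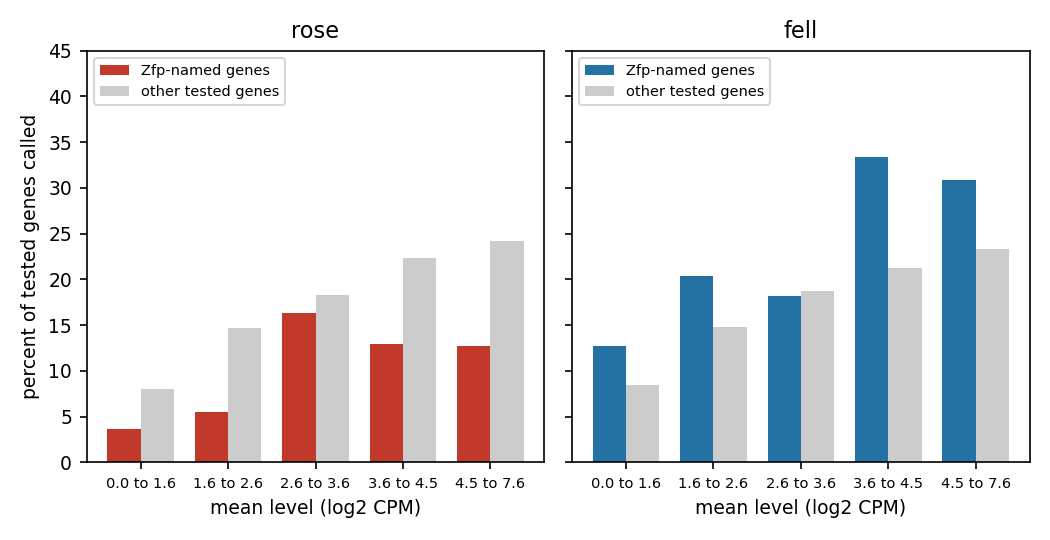
Percent of tested genes that rose (left) or fell (right) in 5 ranges of mean log2 CPM (x axis), for Zfp-named genes (coloured) and other tested genes (grey). Each range holds 54 or 55 members. The members' bar for falls is above that of other genes in every range but 2.6 to 3.6, and their bar for rises is below in every range.

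The largest fall was that of Zfp518a, which encodes a C2H2 protein with 5 fingers found in its sequence and no KRAB box (chromosome 19, 40894705 to 40917947, plus strand, mm10). Under panobinostat its level was 1.98, 2.75 and 1.75 log2 CPM, and without it 4.78, 5.09 and 5.10. The groups were far apart, with a log2 fold change of -2.83 ± 0.26 (SE, n = 3 and 3; limma adjusted p = 0.00041), a 7.10-fold lower level. Its paralogue Zfp518b fell too, from 2.95, 2.83 and 2.79 to 1.41, 1.14 and 1.42 log2 CPM (log2 fold change -1.54 ± 0.20). Both Zfp518 genes of the table were thus lower in every treated library than in any untreated library.

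Zfp784 fell from 2.07, 2.45 and 2.54 to 0.81, -0.34 and 0.02 log2 CPM, a change of -2.19 ± 0.35. Zfp551, a KRAB gene, fell from 3.04, 2.77 and 2.72 to 1.04, 1.14 and 0.35 (-2.001 ± 0.27). Zfp456, also of the KRAB class, fell from 3.07, 3.08 and 2.88 to 0.93, 1.64 and 1.19 (-1.76 ± 0.24). At these treated levels each gene rests on few reads, and for Zfp456 an annotated gene on the same strand lies over its end, so that its reads are uncertain. Zfp628 fell from 2.72, 2.72 and 3.09 to 1.64, 1.31 and 0.51 (-1.69 ± 0.32).

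Among members above the median level, Zfp219, a repressor that also acts with Sox9 in cartilage, stood at 6.99, 6.89 and 6.90 log2 CPM in untreated and at 5.58, 5.88 and 5.69 in treated libraries. Its change of -1.21 ± 0.10 (limma adjusted p = 0.0003) was the largest fall of a member with an untreated mean above 6. Zfp236, which has 31 fingers, fell by 1.29 ± 0.18 on the log2 scale. Zfp524, which is known to bind telomeric DNA, was at 4.41, 4.61 and 4.85 in untreated and 3.70, 3.42 and 3.50 in treated libraries (-1.08 ± 0.15). Zfp180 and the KRAB gene Zfp866 each fell by 1.02 with an SE of 0.13. Zfp414 (-1.36 ± 0.16) and Zfp783 (-1.45 ± 0.18) were also among the largest falls. Of the stretches of 50 bases in the last 500 bases of Zfp414, 47.5% also occur in the annotated transcript Gm20507, and Zfp783 is annotated as a pseudogene with Zfp956 over its end on the same strand. Reads of these last genes therefore cannot be assigned with certainty.

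The largest called rise above the median level was that of Zfp667, a KRAB gene (chromosome 7, 6286579 to 6307883, plus strand). It stood at 5.05, 4.72 and 4.74 log2 CPM in treated and 3.51, 3.37 and 3.55 in untreated libraries, a log2 fold change of 1.36 ± 0.13 (limma adjusted p = 0.00055) and a 2.57-fold higher level. Zfp281, a transcription factor known for its part in pluripotency and differentiation, was at 5.21, 5.29 and 5.43 in treated and 4.21, 4.07 and 4.12 in untreated libraries (1.18 ± 0.11). Its paralogue Zfp148, which binds similar GC-rich sites, was at 7.32, 7.28 and 7.15 in treated and 7.26, 7.25 and 7.38 in untreated libraries. The Zfp148 groups overlapped, and its change of -0.05 ± 0.08 did not pass the test.

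Zfp516, a factor of the brown fat programme, rose from 4.46, 4.26 and 4.10 to 5.17, 5.13 and 4.995 log2 CPM (0.82 ± 0.12). Zfp280b rose from 3.47, 3.49 and 3.36 to 4.35, 4.29 and 4.19 (0.84 ± 0.12). The KRAB gene Zfp354c rose by 1.07 ± 0.15, Zfp974 by 1.03 ± 0.23 and Zfp395 by 0.90 ± 0.21, all with groups that did not overlap. The largest rise of all, that of Zfp28 (1.42 ± 0.42), was measured near the detection limit, at 0.81, 1.41 and 1.93 in treated and 0.51, -0.43 and -0.21 in untreated libraries. Zfp28 lost its call without either of treated libraries 2 and 3 or untreated libraries 2 and 3, with adjusted p up to 0.109. Calls of Zfp239 (1.13), Zfp961 (1.14), Zfp715 (0.97) and Zfp770 (0.81) were likewise lost without 3 or more of the single libraries, in each case treated library 3 and untreated library 3 among them, with adjusted p up to 0.0598, 0.103, 0.0846 and 0.0677.

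**Figure D3:**
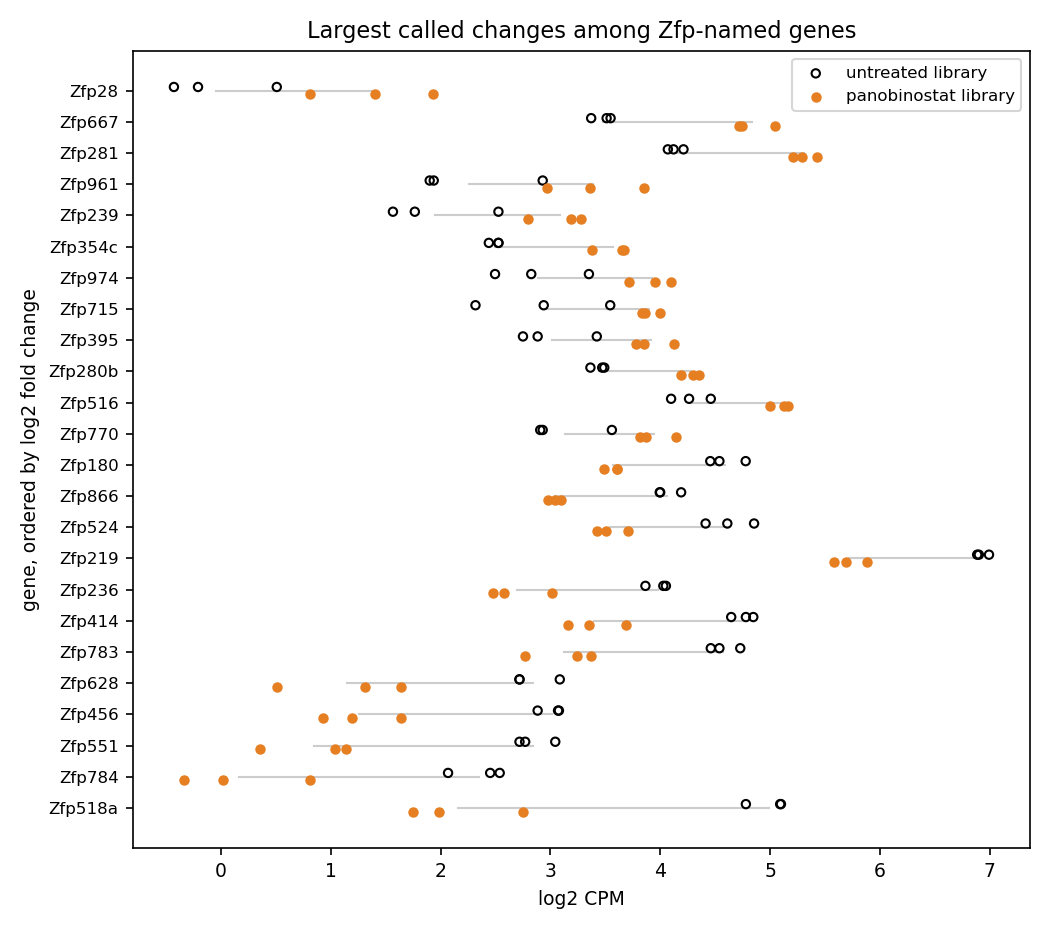
Log2 CPM (x axis) in each untreated (open circles) and panobinostat (filled circles) library for the 12 largest called rises and 12 largest called falls chosen by size within level classes, 1 gene per line, ordered by log2 fold change (y axis). Grey lines join the group means. The groups do not overlap in any of these genes, which was a condition for showing them, and Zfp518a shows the widest gap.

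Families of members that share a number were mixed in their calls. Both Zfp518 genes fell, as given above. Zfp280b rose, Zfp280c was at 3.89, 3.84 and 3.88 log2 CPM in treated and 3.47, 3.92 and 3.57 in untreated libraries without passing the test, and Zfp280d fell by 0.63 ± 0.14 on the log2 scale. Zfp512 fell (-0.65 ± 0.12), while Zfp512b (-0.19 ± 0.14) did not pass. Among paralogues with different numbers, Zfp503 (0.94 ± 0.27) and Zfp703 (0.49 ± 0.11) both rose. These 2 genes encode corepressors with an atypical finger, and Zfp503 lost its call without any 1 of the treated libraries or without untreated library 3 (adjusted p up to 0.0746). Zfp687 rose (0.73 ± 0.10), and its paralogue Zfp592 stood at -0.26 ± 0.11 without passing (adjusted p = 0.0961). Zfp608 fell (-0.92 ± 0.20), and Zfp609 was at 0.09 ± 0.17 without passing. The pairs Zfp729a and Zfp729b, Zfp874a and Zfp874b, Zfp607a and Zfp607b and Zfp955a and Zfp955b held no member called by limma, nor any at an unadjusted p under 0.05. Zfp955a and Zfp955b share 72.3% and 71.8% of their end stretches with other genes, so that their reads are uncertain. The families by shared number follow from the symbols, and the pairs with different numbers were picked by known paralogy after the values had been seen.

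The members of highest level were Zfp207, Zfp292, Zfp106, Zfp148, Zfp91 and Zfp639, with means between 7.02 and 7.56 log2 CPM. Zfp207 (BuGZ), a spindle assembly protein, stood at 7.49, 7.52 and 7.58 in treated and 7.68, 7.51 and 7.58 in untreated libraries. Its groups overlapped, and its change of -0.06 ± 0.08 did not pass. Zfp91, a ubiquitin ligase of the noncanonical NF-kappaB pathway, fell from 7.54, 7.35 and 7.31 to 6.78, 6.79 and 6.79 (-0.61 ± 0.08). The annotated gene Cntf lies on the same strand over the end of Zfp91, so that its reads are uncertain. Zfp106, an RNA-binding protein needed in motor neurons and muscle, rose from 7.16, 7.07 and 7.03 to 7.57, 7.43 and 7.68 (0.48 ± 0.09). Zfp639 fell by 0.40 ± 0.09. Zfp292 fell by 0.35 ± 0.12 at an adjusted p of 0.0475, and lost the call without any 1 of the treated libraries or without untreated library 3 (adjusted p up to 0.118).

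Several members are known from lymphocytes or from retroviral silencing. Zfp335, which developing T cells need to mature, fell from 5.47, 5.51 and 5.76 to 4.96, 4.97 and 4.84 log2 CPM (-0.66 ± 0.11). Zfp341, an activator of Stat3 transcription, fell from 0.81, 1.25 and 1.31 to -0.79, 0.02 and -0.52 (-1.56 ± 0.37), a call lost without untreated library 3 (adjusted p = 0.0577). Its values lay near the detection limit and rest on few reads. Zfp318, which acts in the choice between IgM and IgD in B cells, stood at 4.21, 3.98 and 4.07 in treated and 4.10, 4.35 and 4.06 in untreated libraries, and its groups overlapped. Zfp809, the KRAB protein that recognises the primer binding site of murine leukaemia viruses, fell from 3.65, 3.70 and 3.61 to 2.25, 2.16 and 1.75 (-1.60 ± 0.18, limma adjusted p = 0.0009). Zfp638, which acts in the silencing of unintegrated retroviral DNA, fell by 0.67 ± 0.09. The imprinting regulator Zfp445 (0.24 ± 0.32) and Zfp568, a KRAB repressor of placental Igf2 (0.19 ± 0.11), did not pass.

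Further members of known role were given whatever their change. Zfp598, the ubiquitin ligase that marks collided ribosomes, rose from 4.98, 4.89 and 4.90 to 5.43, 5.57 and 5.55 log2 CPM (0.59 ± 0.09). Zfp622, a factor of the large ribosomal subunit, stood at -0.25 ± 0.09 with all treated libraries below all untreated, and missed the threshold (adjusted p = 0.0613). The SUMO ligase Zfp451 likewise did not overlap between groups and did not pass (-0.20 ± 0.08, adjusted p = 0.0917). Zfp143, an activator of many RNA polymerase promoters (0.35 ± 0.19), Zfp217, a partner of the CoREST complex (0.09 ± 0.08), and Zfp263 (0.07 ± 0.14) did not pass. Zfp57 and Zfp683 were not analysed here. Just inside the threshold lay Zfp850, Zfp169 and Zfp292, at adjusted p of 0.0405, 0.0463 and 0.0475. Just outside it lay Zfp871, Zfp763 and Zfp597, at 0.0503, 0.0514 and 0.053.

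A KRAB box was found in the translated annotated protein of 156 members and not in 120, with 3 members having no annotated protein. KRAB members were lower in level (median 2.48 log2 CPM, against 4.08 without a KRAB box) and had more fingers (median 12, against 7). Of 152 tested KRAB members 11 rose (7.24%) and 24 fell (15.8%), with a median log2 fold change of -0.12. Both shares lay below the 19.2% and 19% of all tested genes, but genes of low level are called less often. Between 1.56 and 2.60 log2 CPM, where the KRAB median lies, 14.7% of other genes rose and 14.7% fell. In that range 2.5% of KRAB members rose and 17.5% fell, so their falls were not fewer than those of other genes there. Of 119 tested members without a KRAB box 17 rose (14.3%) and 38 fell (31.9%), with a median of -0.18. With sample weights the KRAB counts were 22 rises and 29 falls. That setting also gave 3089 rises and 3018 falls among all tested genes, in place of 2416 and 2390. The KRAB rises were 3, 4, 5, 6 and 7 without treated library 3, treated library 2, untreated library 2, treated library 1 and untreated library 3 in turn. In those fits 1582, 1766, 1950, 1821 and 1750 of all tested genes rose. Rises without a KRAB box were 10 without either treated or untreated library 3.

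Level differed between these classes, and within a level range their shares of falls were not the same everywhere. Between 3.57 and 4.50 log2 CPM 4 of 26 KRAB members fell, against 13 of 27 members without the box and 21.3% of other genes. Above that range 2 of 10 KRAB members and 15 of 45 others among the members fell. Between 2.60 and 3.57 the counts were 7 of 33 KRAB members and 3 of 22 without the box. The difference between the classes was not tested.

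**Figure D4:**
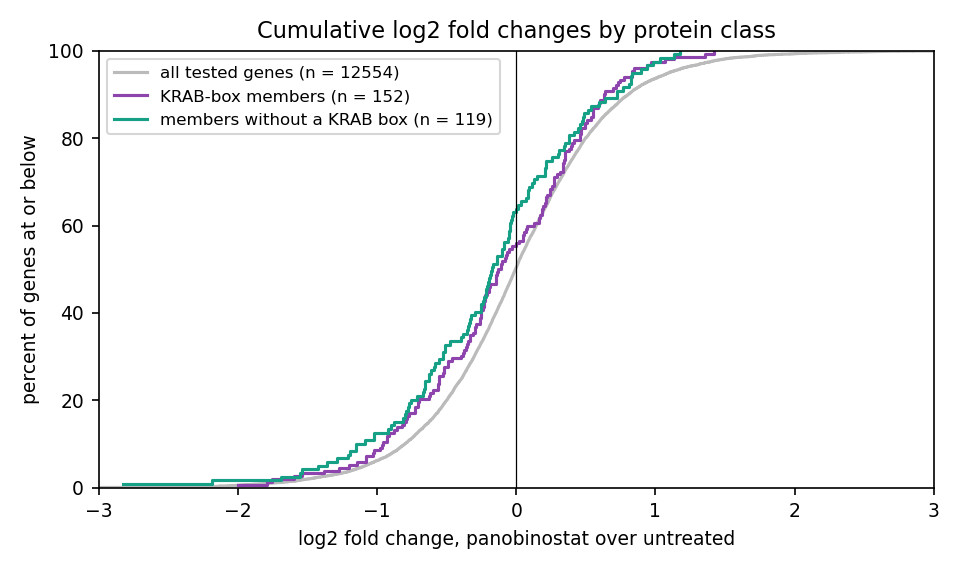
Cumulative percent of genes (y axis) at or below a log2 fold change (x axis) for all tested genes, KRAB members and members without a KRAB box; the x axis stops at 3 on either side. Both member curves lie to the left of all tested genes at the middle, with medians of -0.12 and -0.18 against -0.01.

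Members carrying a SCAN domain, which pairs zinc finger proteins with each other, numbered 10. By limma 0 of them rose (0 also at an unadjusted p under 0.05) and 3 fell, too few members to set against the background of 19.2% and 19%. The falls were Zfp110 (-0.85), Zfp446 (-0.77) and Zfp24 (-0.34). Zfp446 lost its call without untreated library 2 or untreated library 3 (adjusted p up to 0.065), and Zfp24 without treated library 2, treated library 3 or untreated library 3 (up to 0.0684). By number of fingers, the 17 members with at most 1 finger found had 4 rises (23.5%), 2 falls (11.8%) and a median of 0.21. Of these rises that of Zfp503 was lost as given above, and that of Zfp593 (0.38) without treated library 1, treated library 3 or untreated library 3 (adjusted p up to 0.0753). Members with 2 to 4 fingers had 3 rises and 7 falls of 26, those with 5 to 9 had 6 and 25 of 78, those with 10 to 14 had 9 and 17 of 92, and those with 15 or more had 6 and 11 of 58. Differences between these classes were not tested. The member with most fingers, Zfp142 with 41, rose by 0.46, a call lost without any 1 treated library or untreated library 3 (adjusted p up to 0.0683).

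Genes with the same domains but other names were read from the same fit, where 19.2% of all tested genes rose and 19% fell. Of 124 tested genes with 3 or more C2H2 fingers, no KRAB box and another name, 16 rose (12.9%) and 39 fell (31.5%). Their median was -0.20, and the counts were close to those of the members without a KRAB box. Of 30 tested KRAB genes with other names 4 rose and 4 fell (13.3% each, median 0.19). The Zbtb genes, which join fingers to a BTB domain, had 3 rises (8.82%) and 12 falls (35.3%) among 34, with a median of -0.34. Zbtb40 (-1.73 ± 0.20), Zbtb2 (-1.16 ± 0.12), Zbtb1 (-1.13 ± 0.15) and Zbtb14 (-1.03 ± 0.13) led them. Of 14 Zkscan and Zscan genes 2 rose (14.3%) and 3 fell (21.4%). The sets by name and by domain overlap and are not separate evidence. Zbtb40, Zbtb1, Zbtb14 and Zscan12 were also among the 124, and Zkscan3 and Zkscan6 among the 30. Other zinc finger families were counted by name too. Of 18 Zc3h genes, which bind RNA through CCCH fingers, 0 rose by limma (1 was higher at an unadjusted p under 0.05) and 5 fell (27.8%). Of 21 Zmym, Zfhx, Zfand and Zfyve genes 6 rose (28.6%) and 4 fell (19%), a share of falls at the background. The sets of this paragraph differ in level, with medians of 2.24 to 5.39 log2 CPM, and most are small. Differences between them were not tested.

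Among 33 genes for KAP1 and its silencing partners 8 rose (24.2%) and 11 fell (33.3%), against 19.2% and 19% of all tested genes, with a median log2 fold change of -0.04. The list is high in level, and genes of high level are called more often. Between 4.50 and 7.56 log2 CPM, where its median level lies, 24.2% of other genes rose and 23.3% fell. Against that range the share of rises was no higher, and the excess of falls was smaller. These shares carry no test. Trim28 itself stood at 7.27, 7.28 and 7.23 log2 CPM in treated and 7.49, 7.40 and 7.75 in untreated libraries. Its fall of 0.29 ± 0.10 had an adjusted p of 0.0492 and was lost without any 1 treated library or untreated library 3 (up to 0.138). Setdb1 was at 4.95, 4.27 and 4.54 in treated and 4.80, 4.41 and 4.68 in untreated libraries, with overlapping groups. Atf7ip, the partner that stabilises Setdb1, fell from 6.50, 6.53 and 6.67 to 5.46, 5.35 and 5.29 (-1.19 ± 0.09). Among the heterochromatin proteins Cbx5 fell (-0.28 ± 0.06), Cbx3 (0.14 ± 0.08) did not pass, and Cbx1 rose (0.45 ± 0.14), a call lost without any 1 of treated libraries 2 and 3 and untreated libraries 2 and 3 (adjusted p up to 0.108). The NuRD helicase Chd4 rose (0.63 ± 0.08), and the NuRD subunit Mbd3 (-0.81 ± 0.12) and the methyltransferase Suv39h1 (-0.80 ± 0.12) fell.

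Members lying close to each other on a chromosome were compared with isolated ones. With another member among the 5 nearest genes on either side, 10 of 168 tested members rose and 39 fell (5.95% and 23.2%, median -0.20). Without such a neighbour 18 of 105 rose and 24 fell (17.1% and 22.9%, median -0.06). The share of falls was thus nearly equal, and the counts differed in the rises, where the 2 sets also differ in level (medians of 2.85 and 3.74 log2 CPM). Stretches with at least 5 members numbered 11 and held 98 tested members, of which 4 rose and 19 fell. That count of falls is close to the background of 19%, while the 4 rises are a share well below the background of 19.2%. These shares were not weighted for level and carry no test.

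A group of 6 members without a KRAB box on chromosome 7, between 4915217 and 5053723, had the lowest median of these stretches (-1.12). In chromosome order they were Zfp628 (-1.69 ± 0.32), Zfp579 (-1.15 ± 0.23), Zfp524 (-1.08 ± 0.15), Zfp865 (-0.14 ± 0.29), Zfp784 (-2.19 ± 0.35) and Zfp580 (-0.24 ± 0.22). The first 3 and Zfp784 fell, and their calls held without any 1 library. Zfp579 went from 2.88, 3.08 and 3.57 in untreated to 1.78, 2.05 and 2.25 log2 CPM in treated libraries. Zfp865 was at 2.53, 2.28 and 2.49 in treated and 1.96, 2.69 and 3.07 in untreated libraries, and Zfp580 at 3.24, 2.75 and 2.49 and 3.12, 3.15 and 2.94. The groups of these last members overlapped. Zfp784 has Zfp865 and other genes on the opposite strand over its end, and the strand setting used in counting was not given in the sources used here, so reads of that pair cannot be told apart with certainty.

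Other stretches were made up mostly of KRAB members. On chromosome 13 between 67121660 and 67827002 lay 19 KRAB members, of which 18 were tested, 0 rose and 4 fell by limma, with a median of -0.37; Zfp65 alone was higher at an unadjusted p under 0.05, making 1 of 18. The 4 were Zfp595 (-1.54 ± 0.40), Zfp953 (-0.56 ± 0.18), Zfp456 (-1.76 ± 0.24) and Zfp429 (-1.14 ± 0.24), which follow each other among the tested members. Zfp595 lost its call without treated library 1, treated library 3 or untreated library 3 (adjusted p up to 0.0631), and Zfp953 in all leave-one-out fits but that without untreated library 1 (up to 0.118). On chromosome 17 between 21008903 and 23564238, 18 members included 1 rise, Zfp760 (0.83), lost without treated library 2 or treated library 3 (adjusted p up to 0.0641), and 1 fall, Zfp994 (-0.91). On chromosome 7 between 29768552 and 30169750, 14 members had no rise by limma (0 also at an unadjusted p under 0.05) and 3 falls, Zfp74, Zfp82 and Zfp260. Zfp74 lost its call without treated library 2, treated library 3 or untreated library 3 (adjusted p up to 0.0686), and all end stretches of Zfp82 also occur in Gm26920. On chromosome 7 between 27689340 and 28014115, 5 members included no fall (0 also at an unadjusted p under 0.05) and 2 rises, Zfp974 (1.03) and Zfp850 (0.51), which lost its call in every leave-one-out fit (adjusted p up to 0.112). On chromosome 8 between 69209038 and 69791178, 5 KRAB members had a median of -0.38, with 4 of 5 below 0. By limma 0 of these rose (0 also at an unadjusted p under 0.05) and 2 fell, Zfp866 (-1.02) and Zfp869 (-0.97), and Zfp869 lost its call in every leave-one-out fit (adjusted p up to 0.0948). The other 5 stretches had medians between -0.24 and 0.17, with 1 rise and 5 falls in all. Differences between stretches were not tested.

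**Figure D5:**
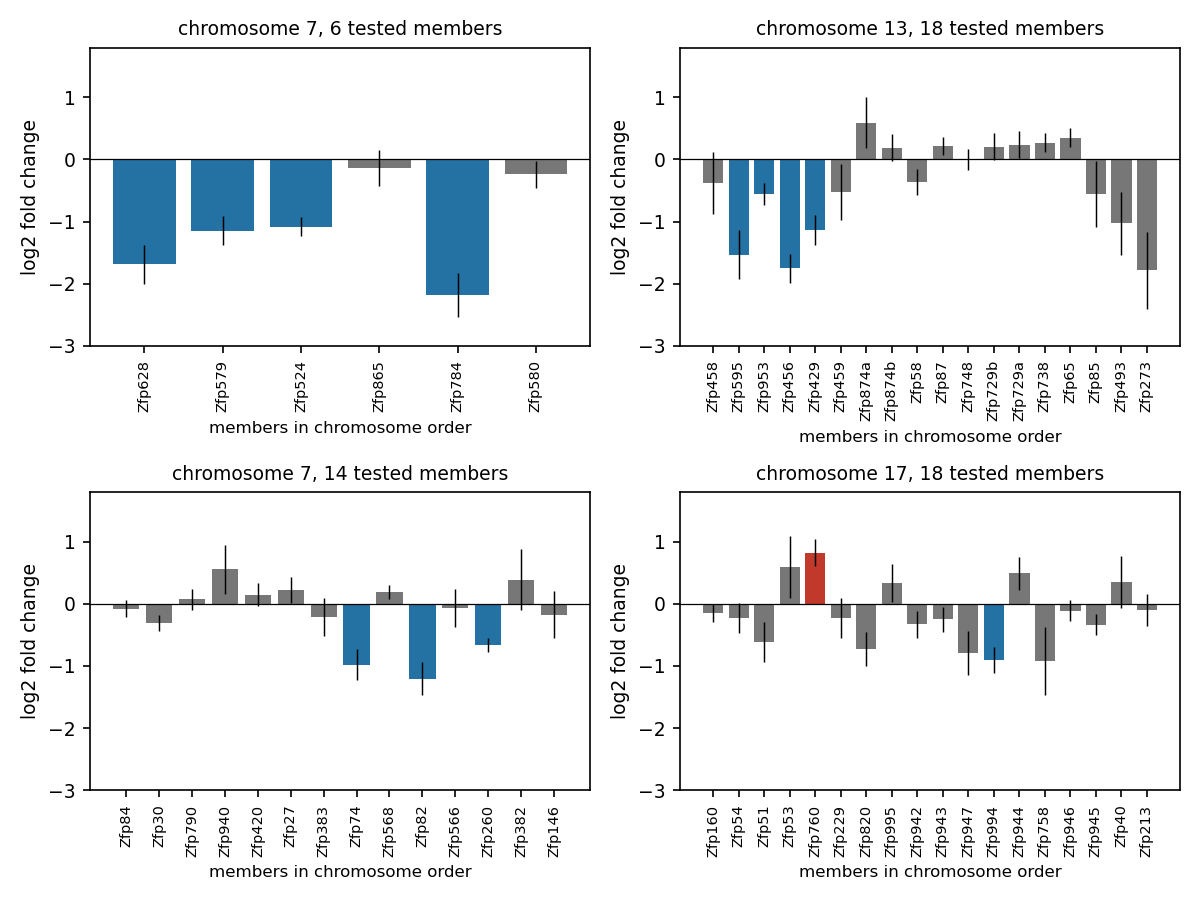
Log2 fold change (bars, with SE) of the tested members of 4 chromosome stretches, in chromosome order (x axis). Blue bars fell, red bars rose and grey bars did not pass the test. In the upper left group 4 of 6 members fell, while in the KRAB-rich stretches most bars are grey.

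Promoter sequences are shown for the chromosome 7 group, where neighbours fell together, and for the members with the largest fall and the 2 largest rises above the median level. Each is the 250 bases before the annotated start from RefSeq on GRCm38.p6, which is the mm10 assembly, read 5′ to 3′ on the gene's strand. Capitals mark the GC box GGGCGG, bound by Sp factors, or its reverse CCGCCC, and the ETS word CCGGAAG or its reverse CTTCCGG. The stretches are chr7:4914967-4915216 (Zfp628, plus strand), chr7:4996102-4996351 (Zfp579, minus strand), chr7:5038447-5038696 (Zfp784, minus strand), chr7:5051282-5051531 (Zfp580, plus strand), chr19:40894455-40894704 (Zfp518a, plus strand), chr1:136624651-136624900 (Zfp281, plus strand) and chr7:6286330-6286579 (Zfp667, plus strand).
Zfp628: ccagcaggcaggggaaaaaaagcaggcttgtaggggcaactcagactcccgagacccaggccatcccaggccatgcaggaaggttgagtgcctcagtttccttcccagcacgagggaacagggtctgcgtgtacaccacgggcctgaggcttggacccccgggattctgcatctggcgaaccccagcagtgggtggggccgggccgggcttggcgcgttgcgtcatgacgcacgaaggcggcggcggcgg
Zfp579: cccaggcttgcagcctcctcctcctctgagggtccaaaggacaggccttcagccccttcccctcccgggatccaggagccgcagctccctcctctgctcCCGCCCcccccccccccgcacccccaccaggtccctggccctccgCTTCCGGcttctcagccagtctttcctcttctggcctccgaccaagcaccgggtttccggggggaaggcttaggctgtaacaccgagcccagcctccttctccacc
Zfp784: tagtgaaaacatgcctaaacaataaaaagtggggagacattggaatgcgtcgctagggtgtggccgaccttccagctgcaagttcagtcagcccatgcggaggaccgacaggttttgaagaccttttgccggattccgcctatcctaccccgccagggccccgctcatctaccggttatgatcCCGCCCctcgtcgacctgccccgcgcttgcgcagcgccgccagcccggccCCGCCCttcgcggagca
Zfp580: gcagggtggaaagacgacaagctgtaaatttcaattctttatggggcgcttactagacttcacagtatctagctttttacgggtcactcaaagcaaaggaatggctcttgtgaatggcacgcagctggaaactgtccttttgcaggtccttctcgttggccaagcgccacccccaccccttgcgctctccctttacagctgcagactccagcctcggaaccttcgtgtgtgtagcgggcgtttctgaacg
Zfp518a: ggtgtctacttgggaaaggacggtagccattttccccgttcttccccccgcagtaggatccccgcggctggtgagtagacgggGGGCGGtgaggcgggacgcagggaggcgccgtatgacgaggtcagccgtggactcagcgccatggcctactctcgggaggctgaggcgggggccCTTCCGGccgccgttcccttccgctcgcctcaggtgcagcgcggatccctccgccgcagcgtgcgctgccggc
Zfp281: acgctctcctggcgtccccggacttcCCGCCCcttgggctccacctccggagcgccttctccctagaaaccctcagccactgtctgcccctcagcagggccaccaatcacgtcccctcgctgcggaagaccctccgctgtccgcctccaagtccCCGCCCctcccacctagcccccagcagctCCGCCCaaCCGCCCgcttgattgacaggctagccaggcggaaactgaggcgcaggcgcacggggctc
Zfp667: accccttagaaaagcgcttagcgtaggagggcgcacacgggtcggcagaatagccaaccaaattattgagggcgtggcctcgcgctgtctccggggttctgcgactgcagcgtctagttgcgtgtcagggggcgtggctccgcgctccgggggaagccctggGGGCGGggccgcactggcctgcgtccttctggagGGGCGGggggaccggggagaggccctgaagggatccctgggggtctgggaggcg

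Promoters of the falling Zfp524 and of Zfp865 were not analysed here. Among the falling neighbours shown, Zfp784 had 2 GC boxes, Zfp579 had 1 GC box and 1 ETS word, and Zfp628 had no match. Zfp580, which did not pass the test, had no match either. The rising Zfp281 had 4 GC boxes, the rising Zfp667 had 2, and the falling Zfp518a had 1 GC box and 1 ETS word. GC content was 66.0% for Zfp628, 68.8% for Zfp579, 61.6% for Zfp784, 52.4% for Zfp580, 70.4% for Zfp518a, 69.6% for Zfp281 and 68.8% for Zfp667. A match is a description of letters and not evidence of binding.

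Over the 230 members with a promoter in the RefSeq table, counted on both strands from 250 bases before to 50 after the start, 49.6% held the GC box. The share was 66.1% of 8339 other tested genes and 35.9% of all 27025 promoters, which include genes that were not in the table. The ETS word occurred in 22.2% of members, 20.2% of other tested genes and 9.12% of all promoters. The palindromic NRF1 element and TGACGTCA (CRE) each occurred in 3.91% of members, against 2.29% and 3.47% of other tested genes and 0.977% and 1.88% of all promoters. ACTACAA or its reverse TTGTAGT, the start of the element known for Zfp143, occurred in 6.09% of members, 4.70% of other tested genes and 3.45% of all promoters. A GC box and an ETS word can overlap at their ends. Among members by call, the GC box was in 13 of 22 that rose and 24 of 51 that fell, and the ETS word in 5 of 22 and 8 of 51.

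In exon number and end GC content the members stood apart from the tested genes, but less so from each other by call. Members had a median of 5 exons, against 9 for all tested genes, and the last 500 bases of their transcripts had a GC content of 39.8%, against 44.4%. Median GC content of the ends was 40.1% for members that rose, 42.6% for those that fell and 39.4% for the rest. Across all tested genes these medians were 43.4%, 45.8% and 44.2%, so that falls had the richest ends in both sets. The 3' untranslated region had a median length of 1238 bases in members and 939 in all tested genes. The gap by call was wider, with medians of 1602 bases in members that rose and 1145 in those that fell. Across all tested genes the medians by call were 1121 and 861. Across 271 members Spearman's rho with the log2 fold change was -0.11 for end GC and 0.11 for 3' untranslated length. These are descriptions over genes, which share libraries and base composition.

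Shared or overlapped transcript ends concern part of the family. At least 20% of the end stretches were shared with another gene in 19 members, of which 0 rose and 2 fell by limma, and 1 was higher at an unadjusted p under 0.05. Another gene lay over the last 500 bases in 56 members, of which 5 rose and 17 fell. Among those named above these include Zfp524 and Zfp866, with a gene on the same strand, and Zfp219, Zfp335 and Zfp961, with a gene on the opposite strand. Among the 204 tested members with neither, 23 rose and 45 fell, and the median log2 fold change was -0.11. Of all tested genes 19.2% rose and 19% fell, and of all tested members 10.3% and 23.1%. Both shares of the 204 lay between those of all tested genes and of all tested members, and carry no test. The 6 untested members, Zfp119a, Zfp119b, Zfp335os, Zfp385a, Zfp759 and Zfp867, had means below 0 log2 CPM. Among them Zfp119a was at -1.95, -0.34 and -1.22 in treated and 0.51, 0.93 and 0.35 in untreated libraries. The antisense transcript Zfp335os was at -3.25, -3.78 and -1.71 in treated and 0.51, 0.55 and -0.21 in untreated libraries. Zfp385a was at 0.48, -0.34 and 0.18 in treated and -2.20, -0.43 and -1.22 in untreated libraries. The groups of these 3 did not overlap, but each value stood for few reads.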

How the data were processed

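The authors deposited a table of log2 values per gene symbol, with a column for each library, whose name gave its sample. That the values are log2 CPM, quantile normalized, was inferred from them: their powers of 2 summed to 994114 to 994182 per library. Reads had been handled with limma, featureCounts (Subread 1.5.0), HISAT2 2.1.0 and cutadapt 1.9 on build mm10, per the submitters' processing notes. The annotation, strand setting and filters are not given in the sources used here. Input was 100 ng of RNA per library, per the labels' protocols.

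A linear model was fitted to the deposited values with limma 3.58.1 in R 4.3.3 (lmFit and eBayes, trend on) over genes whose mean log2 reached 0, leaving 631 rows untested. Adjusted p-values (Benjamini-Hochberg) below 0.05 were called, and nothing was added to the values. Depth was estimated from 200 steps between tied low values, a step taken as 1 read; no molecular identifiers are mentioned in the labels, so reads need not be separate molecules. Symbols were matched to GENCODE M21 (12949 by symbol, 156 by synonym). KRAB boxes were called where a translated coding sequence matched a pattern of 8 conserved positions with at most 2 mismatches, SCAN domains with at most 3 mismatches at 16 positions, and C2H2 fingers by cysteine and histidine spacing. RefSeq proteins had been planned for this and were not used here.

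The members and lists were chosen with earlier results of these data known. The text names, among called members with no overlap between groups, the 8 largest rises and 8 largest falls at or above the members' median level and 4 of each below it, the 6 of highest level, 3 on each side of the threshold, a fixed list of members with known roles, and up to 4 genes of each gene list. Other members are named as families or cluster members and were picked after their values were seen. On data simulated for this comparison over 12554 genes, 47% of 100 genes changed by 1 and 10% of 100 changed by 0.5 (log2) passed. No other gene was altered in the simulation, while 38.3% of all tested genes were called in the real data. Adjustment is stricter where fewer genes differ, and the simulated pass rates were therefore not read as the sensitivity of the real test. Alternatives were other filters, a pseudocount of 1, other scalings, spread models, sample weights, thresholds, a replicate block and each library left out. Python 3.11.15 with pandas 2.3.3 read the tables, and matplotlib 3.10.9 drew the figures.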

Additional observations from a re-analysis of the deposited data

How the results depend on the processing

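Among the 48 members named by the rule above, no called change turned direction under any alternative run. The other called members were followed only in the 6 fits that left out a library. In at least 3 of these 6 fits 74 of the 91 called members kept their call and direction. The members' median log2 fold change of -0.147 was -0.0926 with a filter at a mean log2 of 2, -0.124 with a pseudocount of 1, -0.128 with sample weights and -0.107 over members with an unshared transcript end, an alternative chosen after seeing the data. The cause was not tested. Sample weights gave 46 rising members and 22 rising KRAB members, with 3089 rises among all tested genes in place of 2416. At a threshold of 0.01 there were 8 rises and 35 falls among members and 1240 and 1273 among all tested genes, with 2 and 9 for KRAB members and 6 and 25 for members without the box. With a 2-fold minimum the counts were 7 and 25, 643 and 646, 4 and 10, and 3 and 14. With each library left out in turn, rises ranged from 13 to 36 and falls from 46 to 64 among members, KRAB rises from 3 to 16 and falls from 16 to 24, rises without a KRAB box from 10 to 20 and falls from 29 to 39, and the median from -0.156 to -0.105. Among all tested genes rises ranged from 1582 to 2677 and falls from 1634 to 2556; fewer libraries were fitted in each. With the column number as a replicate block, 24 members rose and 57 fell, beside 2079 and 2069 of all tested genes. The numbers share no origin in the labels, and deviations of same-numbered libraries had correlations of -0.04, 0.10 and -0.01, so they were not taken as pairs. Other scalings shifted the median of all tested genes by at most 0.01. Depth limits the 71 tested members below a mean log2 of 2, for which a change must be large to pass.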
